A study of Homo sapiens with 12 samples.

Results

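The miR-106a-363 cluster on chromosome X and the miR-106b-25 cluster on chromosome 7 are the 2 paralogs of the miR-17-92 cluster. They were followed through their mature miRNA in extracellular vesicles (EV) shed by human induced pluripotent stem cells (hiPSC) on the way to cardiomyocytes. The members were taken by name from the table of miRNA read counts: 4 miRNA of miR-106a-363 (hsa-miR-106a-5p, hsa-miR-18b-5p, hsa-miR-20b-5p and hsa-miR-363-3p) and 4 of miR-106b-25 (hsa-miR-106b-5p, hsa-miR-106b-3p, hsa-miR-93-5p and hsa-miR-25-3p). All 8 had a row, of 1133 miRNA in the table. The products miR-19b-3p and miR-92a-3p were not counted as members, because miR-17-92 encodes the same mature sequences.

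Small RNA was sequenced from EV of a single hiPSC line, IMR90-4, with 3 EV preparations from independent cultures in each of 4 groups, 12 libraries in all. hiPSC-EV came from expansion medium at day 0 (TeSR-E8, conditioned for 24 h). CPC-EV came from cardiac progenitors at day 6, after CHIR99021, Activin A and ascorbic acid. Their medium, conditioned for 72 h, was RPMI with B27 lacking insulin and with IWR1. CMi-EV came from immature cardiomyocytes at day 15 (aggregates in RPMI with B27 and insulin; 48 h), and CMm-EV from matured cardiomyocytes at day 35 (glucose-free medium with galactose, glutamine, oleic acid and palmitic acid; 48 h). Stage and medium change together in every comparison, and conditioning time with them except between CMi-EV and CMm-EV (both 48 h), so they cannot be told apart. The libraries held 703415 to 6272455 miRNA counts.

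Mature miRNA guide Argonaute proteins to messenger RNA, mainly by pairing of the seed, so miRNA with the same seed share many targets. The miR-17 family lowers cell cycle inhibitors such as CDKN1A and is known from proliferating and pluripotent cells, and the miR-25 and miR-92 family lowers the pro-apoptotic BCL2L11. The miR-106b-25 hairpins lie in introns of MCM7, which encodes a subunit of the replicative helicase and is transcribed in dividing cells.

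The mature sequences are shown because 3 members of each cluster share a seed with members of the other and because a few bases separate several members from miR-17-92. They are RefSeq sequences on GRCh38.p14, 5′ to 3′, with the seed (bases 2 to 8) in capitals. The seed AAAGUGC is shared by 2 members of each cluster and by miR-17-5p and miR-20a-5p of miR-17-92:
miR-106a-5p: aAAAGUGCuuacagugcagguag
miR-20b-5p: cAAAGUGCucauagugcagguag
miR-106b-5p: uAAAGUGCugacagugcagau
miR-93-5p: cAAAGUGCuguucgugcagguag
miR-17-5p: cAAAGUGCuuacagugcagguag
miR-20a-5p: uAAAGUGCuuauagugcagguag

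The seed AUUGCAC is shared by the last member of each cluster:
miR-363-3p: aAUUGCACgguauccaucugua
miR-25-3p: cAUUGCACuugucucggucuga

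The remaining members have seeds of their own among the 8, AAGGUGC for miR-18b-5p (with its relative miR-18a-5p of miR-17-92) and CGCACUG for miR-106b-3p:
miR-18b-5p: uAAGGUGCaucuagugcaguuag
miR-18a-5p: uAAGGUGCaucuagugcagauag
miR-106b-3p: cCGCACUGuggguacuugcugc

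The 4 members of miR-106a-363 lie within chrX:134169382-134170266 on the minus strand, a span of 885 bases, inside an exon of each of 3 transcripts of a long noncoding RNA gene without a symbol (GENCODE). The 4 members of miR-106b-25 lie within chr7:100093571-100094063, also on the minus strand, a span of 493 bases. They lie in introns of all 9 overlapping MCM7 transcripts, except that an exon of 1 transcript overlaps miR-93-5p. Counted from the 5′ end, miR-106a-5p differs from miR-17-5p by 1 base (A1C), miR-18b-5p from miR-18a-5p by 1 base (U20A) and miR-20b-5p from miR-20a-5p by 2 bases (C1U and C10U). The counts show such sharing of reads: miR-20b-5p had a fractional count in 10 of 12 libraries, miR-106a-5p in 7, miR-106b-3p in 3 and miR-18b-5p in 1. Levels of these 4 members are therefore uncertain, those of miR-20b-5p, miR-106a-5p and miR-18b-5p with respect to miR-17-92; which miRNA shared reads with miR-106b-3p was not analysed here. The counts of miR-363-3p and miR-25-3p, which differ at 13 of 22 positions, were whole in all 12 libraries.

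Levels are given as CPM, the miRNA counts scaled to library size and by TMM over the 12 libraries. hsa-miR-363-3p, the most abundant member in every group, was at 44969, 53095 and 66685 CPM in hiPSC-EV, 14424, 14325 and 11236 CPM in CPC-EV, 5686, 5921 and 5896 CPM in CMi-EV, and 1203, 1212 and 1228 CPM in CMm-EV. The 4 groups followed the order of differentiation with no overlap. hsa-miR-25-3p, its partner by seed in miR-106b-25 and known to repress the calcium pump of the sarcoplasmic reticulum, was at 2964, 3300.3 and 5340.5 CPM in hiPSC-EV, 1563, 1857 and 1200.4 CPM in CPC-EV, 909, 680.4 and 832 CPM in CMi-EV, and 244, 482 and 588 CPM in CMm-EV. Its groups had the same order, also without overlap, over a narrower range.

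Of the members with the miR-17 seed, hsa-miR-106a-5p was at 1542, 1698 and 3423 CPM in hiPSC-EV, 496, 650.2 and 426 CPM in CPC-EV, 55.6, 123 and 135 CPM in CMi-EV, and 34.0, 0 and 36.3 CPM in CMm-EV. hsa-miR-20b-5p was at 676, 611 and 1448 CPM in hiPSC-EV, 211, 310 and 26.02 CPM in CPC-EV, 0.882, 23.1 and 33.3 CPM in CMi-EV, and 2.43, 0.530 and 0 CPM in CMm-EV. Both were highest in all hiPSC-EV libraries. In CMm-EV miR-106a-5p had no count in replicate 2 and 28 and 92 counts in the others, and miR-20b-5p at most 2 counts in a library; miR-20b-5p overlapped between CPC-EV and CMi-EV through CPC-EV replicate 3. hsa-miR-93-5p was at 352, 595 and 1225 CPM in hiPSC-EV, 204, 213 and 109 CPM in CPC-EV, 57.3, 181 and 103 CPM in CMi-EV, and 0, 28.9 and 75.7 CPM in CMm-EV. hsa-miR-106b-5p was the least abundant of this seed in hiPSC-EV, at 116, 128 and 134 CPM, with 84.8, 125 and 101 CPM in CPC-EV, 48.9, 0 and 31.9 CPM in CMi-EV, and 0, 29.2 and 5.13 CPM in CMm-EV. The hiPSC-EV and CPC-EV ranges of miR-106b-5p overlapped, unlike those of the other 3.

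hsa-miR-106b-3p, from the opposite arm of the miR-106b hairpin, averaged 583 ± 156, 317 ± 20.4, 180 ± 60.9 and 99.1 ± 48.3 CPM in the order of stages (SD, n = 3), its CMi-EV and CMm-EV ranges overlapping. hsa-miR-18b-5p averaged 56.4 ± 14.9 CPM in hiPSC-EV and 19.2 ± 20.8 CPM in CPC-EV (SD, n = 3), where 1 library had no count. It had no count in the 6 cardiomyocyte libraries, and 3 counts in a CMm-EV library correspond to 3.64, 0.796 and 1.18 CPM. Such floors, and the intervals below, cover counting error only, of reads amplified by PCR without molecular identifiers. Whether fewer EV carried a miRNA or each EV carried less of it cannot be told apart.

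**Figure D1:**
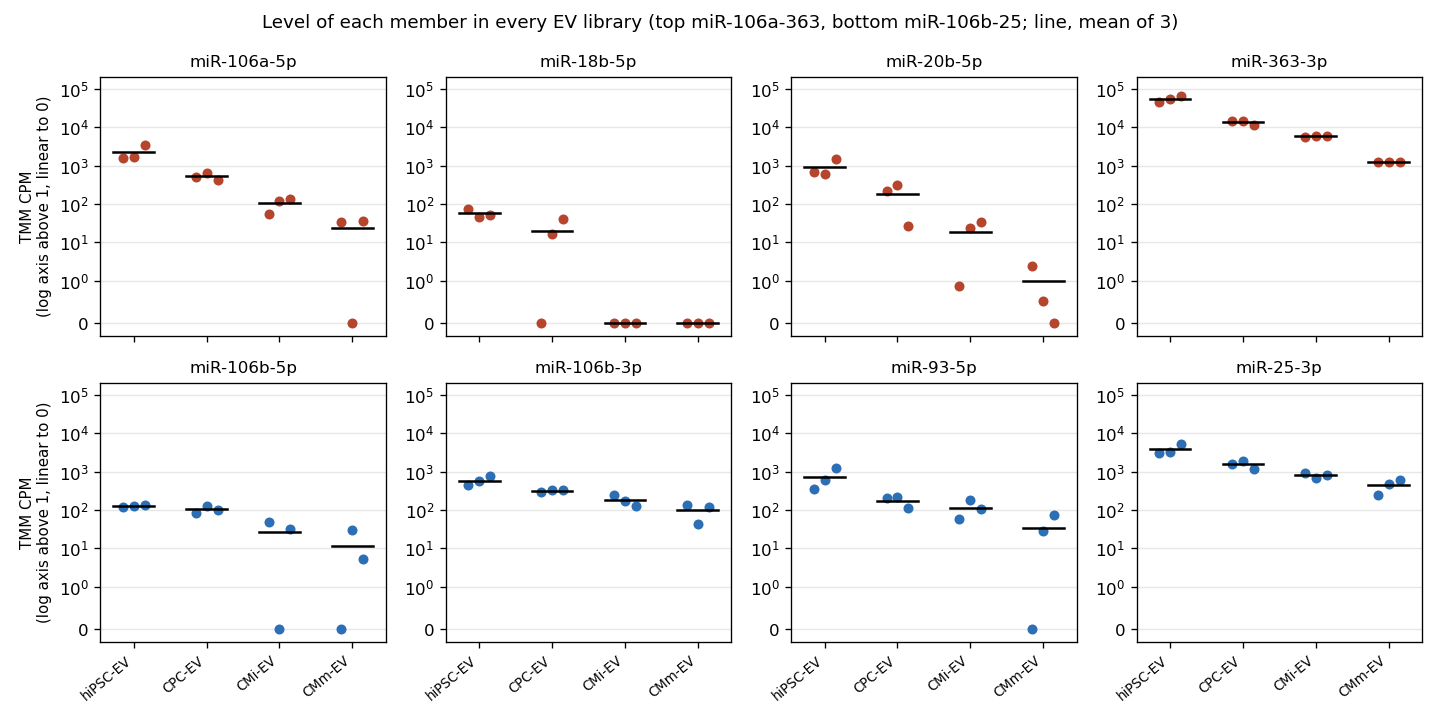
TMM-scaled CPM of the 8 members in each of the 12 libraries (points; black line, mean of the 3 libraries of a group), with the miR-106a-363 members in the top row and the miR-106b-25 members in the bottom row; the vertical axis is logarithmic above 1 and linear down to 0. miR-363-3p drops from a mean of 54916 CPM in hiPSC-EV to 1215 CPM in CMm-EV, and miR-25-3p from 3868 to 438 CPM.

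Each group was compared with the preceding stage, and both ends of differentiation with each other, by the quasi-likelihood test of edgeR over all miRNA that passed a filter (at least 5 CPM in every library of a group). A miRNA was called at a false discovery rate (FDR) of at most 0.05 and a change of at least 2-fold. Each fit was scaled within its own 6 libraries, so its log2 fold changes are offset from the printed CPM by 0.42 (CPC-EV versus hiPSC-EV), -0.01 (CMi-EV versus CPC-EV), -0.17 (CMm-EV versus CMi-EV) and -0.29 (CMm-EV versus hiPSC-EV). Comparisons that share a group share its libraries.

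From hiPSC-EV to CPC-EV, the step from pluripotent cells to cardiac progenitors, all 8 members were tested and 3 were called lower, miR-363-3p, miR-106a-5p and miR-93-5p. None was called higher. Over all 338 miRNA tested, 16.0% were called lower and 11.5% higher. miR-363-3p had a log2 fold change of -1.62 ± 0.18 (SE; FDR = 0.000716) and miR-106a-5p of -1.67 ± 0.32 (FDR = 0.00769), lower in all 3 CPC-EV libraries than in any hiPSC-EV library. miR-93-5p had a log2 fold change of -1.61 ± 0.46 (FDR = 0.0364). That call depended on single libraries: without hiPSC-EV replicate 2 or 3, or CPC-EV replicate 1, 2 or 3, its FDR was 0.0572, 0.0987, 0.0872, 0.0698 and 0.131. miR-25-3p passed the FDR but not the fold minimum (-0.91 ± 0.25, FDR = 0.0299); without hiPSC-EV replicate 1 or 2 its log2 fold change was -1.06 and -1.05 and it was called. miR-20b-5p (-1.95 ± 0.74, FDR = 0.0998), miR-18b-5p (-1.14 ± 1.45, FDR = 0.633; -0.54 and -2.43 without CPC-EV replicate 1 or 3), miR-106b-3p (-0.45 ± 0.27, FDR = 0.275) and miR-106b-5p (0.13 ± 0.41, FDR = 0.844) did not pass the test. The median log2 fold change was -1.64 over the miR-106a-363 members and -0.68 over the miR-106b-25 members, against -0.27 over all miRNA tested (-0.45 to -0.10 with other scalings). Without a filter the median over the 1031 miRNA tested was -1.52. With scaling and dispersions from all 12 libraries the calls of miR-106a-5p (FDR = 0.263) and miR-93-5p (FDR = 0.284) were lost and miR-25-3p was called (-1.09, FDR = 0.0325), as it was with the RPM library totals (-1.04, FDR = 0.00912). With filterByExpr miR-93-5p was lost (FDR = 0.0587), and miR-20b-5p was called without a filter (FDR = 0.000363), with DESeq2 (FDR = 0.0499) and with the exact test of edgeR (FDR = 0.0469).

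From CPC-EV to CMi-EV, 7 members were tested and 2 were called lower, both of miR-106a-363, where 14.0% of 292 miRNA were called lower and 14.4% higher. These were miR-106a-5p (-2.36 ± 0.36, FDR = 0.00358) and miR-363-3p (-1.21 ± 0.17, FDR = 0.00209), again with no overlap between the groups. None of the 4 miR-106b-25 members was called, though a call in a single cluster is not by itself a difference between clusters, which was tested only through the ratios below. Of these, miR-25-3p passed the FDR at a log2 fold change of -0.93 ± 0.23 (FDR = 0.0219), short of 2-fold. It was called without CPC-EV replicate 3 (-1.12) and without CMi-EV replicate 1 (-1.10), and miR-106b-3p also was without the latter (-1.17, FDR = 0.0486, against -0.80 ± 0.37 and FDR = 0.170 with all libraries). miR-20b-5p was at -3.31 ± 1.23 (FDR = 0.123), with the lowest level in CMi-EV replicate 1. Without CPC-EV replicate 2 or CMi-EV replicate 3 it was at -2.63 and -3.95. It was called without a filter (-3.37, FDR = 0.00101) and with DESeq2 (-3.24, FDR = 0.0317), miR-25-3p was called without a filter (FDR = 0.0217), and with scaling and dispersions from all 12 libraries the call of miR-106a-5p was lost (FDR = 0.132). Scaled to library size only, miR-25-3p (-1.39, FDR = 0.00176) and miR-106b-3p (-1.30, FDR = 0.0346) were called as well, and the calls over all miRNA moved from 42 higher and 41 lower to 31 and 56. miR-18b-5p did not pass the filter here, except without CPC-EV replicate 1, the CPC-EV library with no count of it, when it was called lower (FDR = 0.0354). The median log2 fold change was -2.36 over the 3 tested members of miR-106a-363 and -0.87 over the 4 of miR-106b-25, against -0.05 over all miRNA tested (-0.52 scaled to library size only). Of these members, miR-20b-5p and miR-106b-5p had passed the filter through CPC-EV alone. The medians were not compared by a test.

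From CMi-EV to CMm-EV, 5 members passed the filter. Only miR-363-3p was called, lower with a log2 fold change of -2.43 ± 0.14 (FDR = 5.45e-05), where 10.1% of 247 miRNA were called lower and 6.48% higher. miR-25-3p was at -1.03 ± 0.38 (FDR = 0.135), and was called when scaled to library size only (-1.70, FDR = 0.00621) or to the RPM library totals (-1.34, FDR = 0.0312). These scalings moved the calls over all miRNA from 16 higher and 25 lower to 10 and 42, and to 13 and 33, and the median log2 fold change of all miRNA from -0.30 to -0.91 and -0.60 (-0.17 with the fit over all 12 libraries). The other 3 tested, miR-106a-5p, miR-106b-3p and miR-93-5p, had FDR of 0.364, 0.325 and 0.445. For miR-106a-5p and miR-93-5p a CMm-EV library without any count entered the fit, and their SE were 1.49 and 1.38 on the log2 scale; miR-106a-5p went from -2.33 to -1.73 without CMm-EV replicate 2, and miR-93-5p from -1.81 to -3.07 without CMm-EV replicate 3.

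Across both ends, CMm-EV versus hiPSC-EV, all 8 members were tested and all 8 were called lower, 4 in each cluster, where 37.5% of 336 miRNA were called lower and 16.1% higher. Of the 8, 5 (miR-106a-5p, miR-18b-5p, miR-20b-5p, miR-106b-5p and miR-93-5p) passed the filter through hiPSC-EV alone; without a filter all 8 were called lower as well. In miR-106a-363, miR-363-3p changed by a log2 fold change of -5.81 ± 0.27 (FDR = 2.87e-05) and miR-106a-5p by -6.94 ± 1.26 (FDR = 0.00842). miR-20b-5p, with 2, 2 and 0 counts in CMm-EV, was at least 487-fold lower against a floor of 3 counts per library (-10.68 as fitted, FDR = 0.000409), and its reads summed with those of miR-20a-5p were at -5.73 (FDR = 0.000180). miR-18b-5p, with no count in CMm-EV, was at least 30.1-fold lower against the same floor (FDR = 0.00163). In miR-106b-25, miR-25-3p changed by -3.47 ± 0.44 (FDR = 0.00109; -2.88 without CMm-EV replicate 1), miR-106b-3p by -2.88 ± 0.53 (FDR = 0.00399), miR-93-5p by -4.73 ± 1.18 (FDR = 0.0233) and miR-106b-5p by -3.68 ± 1.20 (FDR = 0.0498).

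The weakest of these calls was that of miR-106b-5p, whose FDR was 0.0934, 0.120, 0.129 and 0.131 without hiPSC-EV replicates 1, 2 and 3 and CMm-EV replicate 3, 0.0738 with median-of-ratios scaling, 0.0569 with the RPM library totals, 0.0640 with filterByExpr and 0.119 with scaling and dispersions from all 12 libraries. That of miR-93-5p was lost without hiPSC-EV replicate 2 or 3 or CMm-EV replicate 2, at 0.0555, 0.0822 and 0.0726. The fold changes themselves moved with the CMm-EV libraries: without replicate 1, 2 or 3 miR-106b-5p was at -2.92, -5.47 and -3.07, without replicate 1 or 3 miR-93-5p was at -3.78 and -5.50, and without replicate 2 or 3 miR-106a-5p was at -6.17 and -7.60. Without hiPSC-EV replicate 3 miR-93-5p was at -4.05. miR-20b-5p was at -11.35 as fitted without CMm-EV replicate 1 and at -10.04 without hiPSC-EV replicate 3. The median log2 fold change was -3.58 over the miR-106b-25 members and -6.38 over the miR-106a-363 members, with miR-18b-5p at its bound (-8.61 as fitted), beside -1.53 over all miRNA tested (-1.97 to -1.01 with other scalings, the fit over all 12 libraries included). Without a filter the median over the 1018 miRNA tested was -3.19. In a test of any difference among the 4 groups, 7 of the 8 members passed an FDR of 0.05, where 50.7% of all miRNA tested did. The exception was miR-106b-5p (FDR = 0.252).

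**Figure D2:**
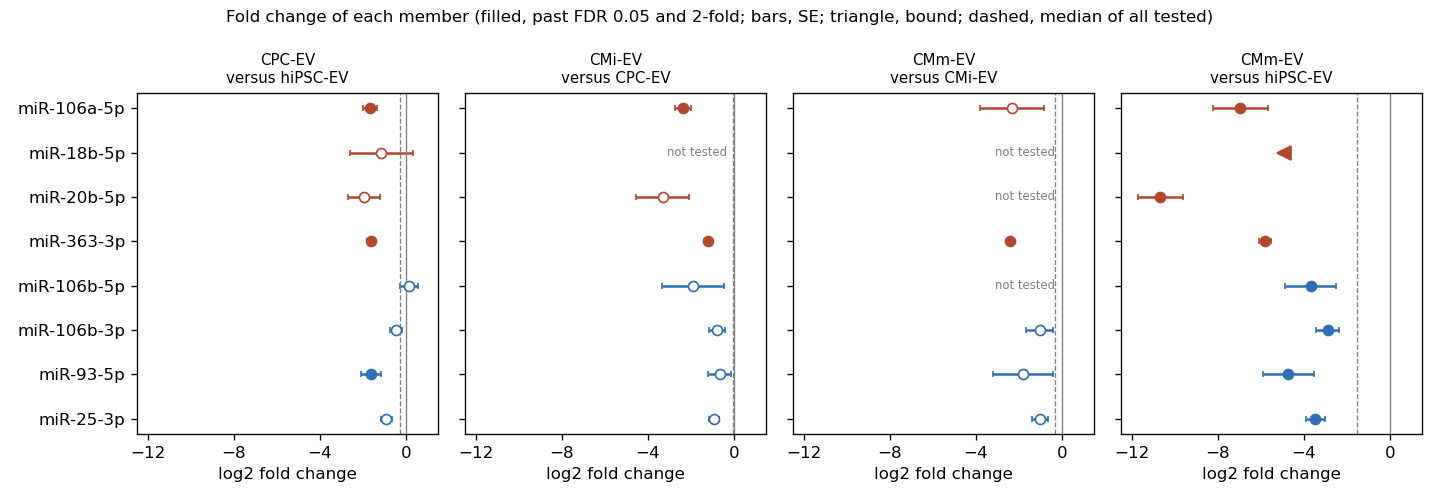
log2 fold change of each member in the 4 comparisons (points with SE bars; filled, FDR of at most 0.05 and at least 2-fold; red, miR-106a-363; blue, miR-106b-25). The triangle is the bound for miR-18b-5p, miR-20b-5p in CMm-EV versus hiPSC-EV is shown as fitted although all its CMm-EV counts lie under the floor, the dashed line the median of all miRNA tested; all 8 members lie below that median in CMm-EV versus hiPSC-EV.

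The clusters were then set against each other within each library, where scaling between libraries cancels. In hiPSC-EV, miR-106a-363 supplied 92.4%, 92.4% and 90.6% of the summed reads of the 8 members. It supplied 87.6%, 85.8% and 87.1% in CPC-EV, 82.0%, 85.5% and 84.7% in CMi-EV, and 76.8%, 67.5% and 61.5% in CMm-EV. All hiPSC-EV libraries were above, and all CMm-EV libraries below, every library of the intermediate stages. CPC-EV and CMi-EV lay close together, the lowest CPC-EV library at 85.8% and the highest CMi-EV library at 85.5%. The widest Wilson interval at the 95% level was that of CMm-EV replicate 1, from 74.4% to 79.0% of 1330 reads, and the narrowest that of hiPSC-EV replicate 3, from 90.5% to 90.7% of 370847 reads.

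The means were 91.8% ± 1.05, 86.8% ± 0.915, 84.1% ± 1.85 and 68.6% ± 7.70 in the order of stages (SD, n = 3). Put as reads of miR-106a-363 for each read of miR-106b-25, they were 11.3 ± 1.46, 6.62 ± 0.516, 5.33 ± 0.699 and 2.33 ± 0.881. These shares rest on few miRNA. miR-363-3p made up 94.7% ± 1.38 of the reads of the miR-106a-363 members in hiPSC-EV and 98.0% ± 1.65 in CMm-EV, and miR-25-3p made up 73.4% ± 2.76 and 74.0% ± 8.78 of those of miR-106b-25 (SD, n = 3).

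**Figure D3:**
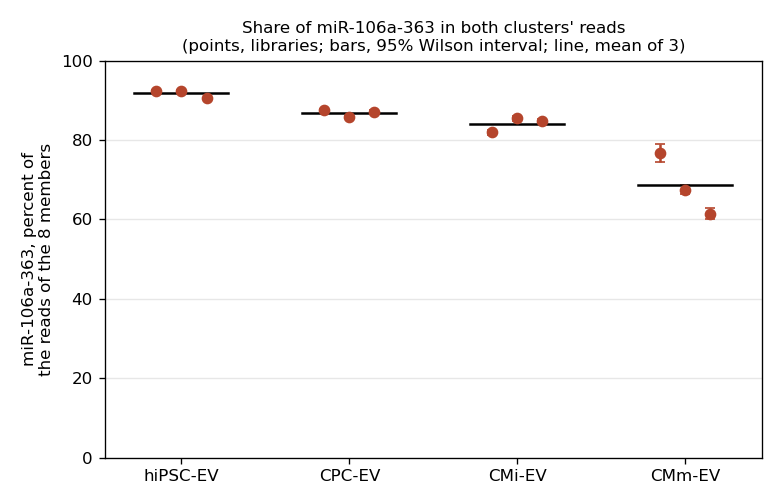
Percent of the summed reads of the 8 members that came from miR-106a-363 in each library (points, with 95% Wilson intervals that cover counting error only; black line, mean of 3). The 3 hiPSC-EV libraries lie between 90.6% and 92.4%, the 3 CMm-EV libraries between 61.5% and 76.8%.

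Of 5 possible same-seed pairs between the clusters, 3 were compared, matched by their order along each cluster; the crossed pairs miR-106a-5p with miR-93-5p and miR-20b-5p with miR-106b-5p were not tested. The log2 ratio of miR-363-3p to miR-25-3p was 3.92, 4.01 and 3.64 in hiPSC-EV, 3.21, 2.95 and 3.23 in CPC-EV, 2.64, 3.12 and 2.82 in CMi-EV, and 2.30, 1.33 and 1.06 in CMm-EV. It was highest in every hiPSC-EV library and lowest in every CMm-EV library, and the ranges of CPC-EV and CMi-EV overlapped. The difference between the hiPSC-EV mean (3.86 ± 0.19, SD) and the CMm-EV mean (1.56 ± 0.65, SD) was 2.29 ± 0.39 (SE). The ratio differed among the 4 groups by an exact permutation test over all 369600 assignments of libraries (p = 0.00013, and 0.00039 after Benjamini-Hochberg adjustment over the 3 pairs; n = 3 per group; smallest possible p = 6.49e-05).

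The ratio of miR-20b-5p to miR-93-5p averaged 0.41 ± 0.47, -0.49 ± 1.38, -3.43 ± 2.09 and -3.91 ± 5.62 in the order of stages (log2 scale; SD, n = 3). Its exact permutation p was 0.291 (0.436 adjusted). CMm-EV replicate 1, with 2 counts of miR-20b-5p and 0 of miR-93-5p, stood at 2.32 where the other CMm-EV libraries were at -5.45 and -8.59. Without it the difference between hiPSC-EV and CMm-EV was 7.43 in place of 4.31, and the adjusted exact p was 0.0214. With each of the 12 libraries left out in turn, the difference lay between 1.97 and 7.43. The adjusted exact p then lay between 0.0214 and 0.665.

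The ratio of miR-106a-5p to miR-106b-5p averaged 4.04 ± 0.55, 2.33 ± 0.24, 3.71 ± 4.57 and 0.27 ± 7.15 in the order of stages (log2 scale; SD, n = 3), with an exact permutation p of 0.778 (0.778 adjusted). A count of 0 on either side placed CMi-EV replicate 2 at 8.87, CMm-EV replicate 1 at 5.83 and CMm-EV replicate 2 at -7.79. Without the last of these libraries the difference between hiPSC-EV and CMm-EV turned from 3.77 to -0.26. With all libraries neither this ratio nor that of miR-20b-5p to miR-93-5p passed the test.

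**Figure D4:**
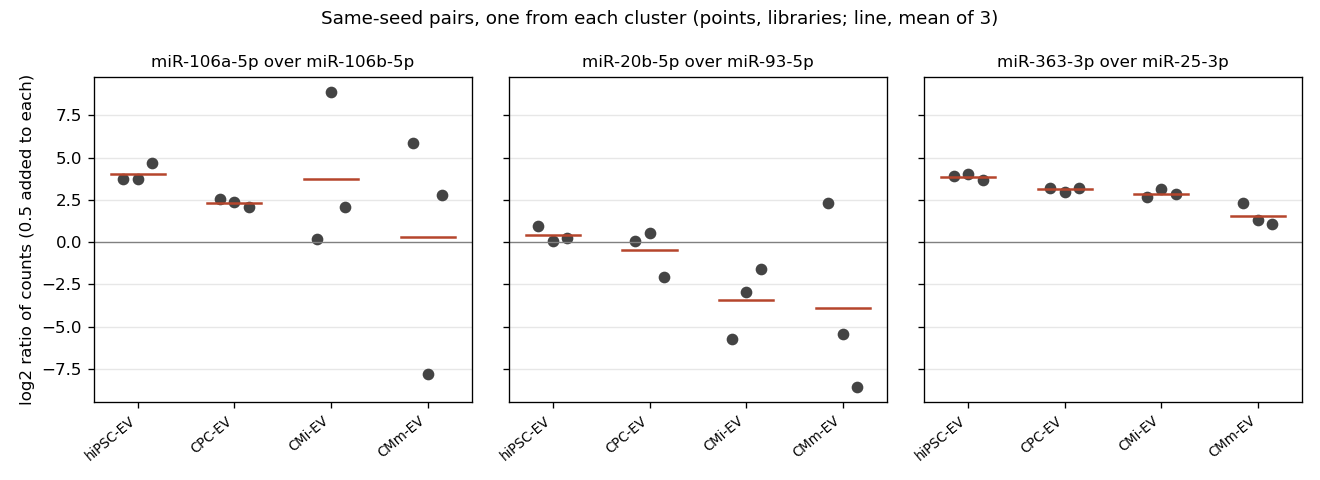
log2 ratio of counts, with 0.5 added to each count, for the 3 same-seed pairs in each library (points; red line, mean of 3). The ratio of miR-363-3p to miR-25-3p goes from a mean of 3.86 in hiPSC-EV to 1.56 in CMm-EV, while both other pairs spread over several log2 units in CMi-EV and CMm-EV.

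Against all miRNA that share their seeds, the clusters also took different parts. The miR-25 seed is found in 6 human miRNA of the reference, all with a row in the table. Of this family's reads, miR-363-3p made up 25.6% ± 3.59, 11.5% ± 0.346, 9.59% ± 1.20 and 4.29% ± 0.268 from hiPSC-EV to CMm-EV (SD, n = 3). miR-25-3p stayed between 0.932% and 2.38% in all 12 libraries, with means of 1.80%, 1.32%, 1.35% and 1.52%. miR-92a-3p, the product shared by miR-17-92 and miR-106a-363, held 52.4% ± 2.27, 67.8% ± 1.08, 72.9% ± 0.551 and 57.5% ± 5.08 of the family in the order of stages (SD, n = 3), highest in CMi-EV. The remaining 3 miRNA, mostly miR-92b-3p, held 20.2% ± 1.98, 19.3% ± 0.728, 16.2% ± 1.25 and 36.7% ± 4.74 (SD, n = 3). From CMi-EV to CMm-EV miR-92b-3p had a log2 fold change of -0.09 ± 0.24 (FDR = 0.806).

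The seed of miR-106b-5p is found in 8 miRNA of the reference. Of these reads, miR-106a-5p and miR-20b-5p together held 38.9% ± 2.83, 32.0% ± 3.75, 19.7% ± 11.9 and 10.5% ± 8.94 from hiPSC-EV to CMm-EV (SD, n = 3). miR-106b-5p and miR-93-5p held 10.3% ± 1.33, 12.9% ± 0.292, 21.5% ± 4.74 and 23.4% ± 20.4, with the CMm-EV libraries anywhere from 0% to 37.5%. The rest came almost wholly from miR-17-5p and miR-20a-5p, whose reads are partly shared with miR-106a-5p and miR-20b-5p. These shares are descriptions and were not tested.

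**Figure D5:**
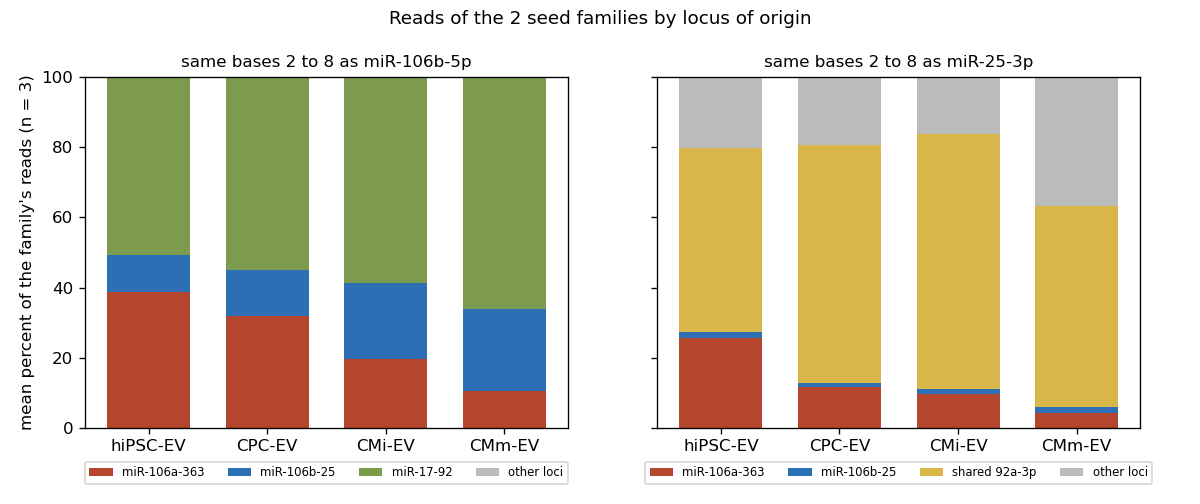
Mean percent of the reads of each seed family by locus in the 4 groups (n = 3; left, the seed of miR-106b-5p; right, the seed of miR-25-3p). The part from miR-106a-363 shrinks from 38.9% to 10.5% on the left and from 25.6% to 4.29% on the right, while the means of miR-25-3p lie between 1.32% and 1.80%.

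The other lists give context. Of the 9 miR-17-92 miRNA, 8 were tested in CMm-EV versus hiPSC-EV and 4 were called lower (miR-17-5p, miR-18a-5p, miR-20a-5p and miR-92a-3p), none higher, with a median log2 fold change of -4.25, beside 37.5% called lower and a median of -1.53 over all miRNA tested. Of these 8, 6 had passed the filter through hiPSC-EV alone. miR-92a-3p changed by -0.09 ± 0.14 from hiPSC-EV to CPC-EV (FDR = 0.677), the step at which miR-363-3p, encoded beside a copy of it, was called lower; the difference between these 2 miRNA was not tested. Of the 6 other arms of the 2 clusters, 4 were called lower in CMm-EV, again none higher. They were miR-106a-3p, miR-18b-3p, miR-20b-3p and miR-363-5p, all of miR-106a-363, and all passed the filter through hiPSC-EV alone. miR-93-3p (-2.72 ± 1.24, FDR = 0.116) and miR-25-5p (-2.54 ± 0.87, FDR = 0.0505) of miR-106b-25 did not pass the test, and a difference between the arms of the 2 clusters was not tested.

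The arms of the miR-106b-25 hairpins were present in unequal amounts that differed by hairpin. The 3p arm made up 81.8% ± 2.88 of the miR-106b reads in hiPSC-EV and 75.5% ± 2.56 in CPC-EV (SD, n = 3). The part of miR-25-3p in the miR-25 reads was 95.1% ± 6.20 in hiPSC-EV and 81.4% ± 6.08 in CPC-EV, while its mean level went from 3868 to 1540.2 CPM (SD, n = 3). The 5p arm of miR-25 was at 169 ± 203 CPM in hiPSC-EV and 338 ± 70.0 CPM in CPC-EV, with hiPSC-EV replicate 1, at 404 CPM, above every CPC-EV library (SD, n = 3). For miR-93 the 5p arm made up 64.8% ± 7.57 in hiPSC-EV and 36.2% ± 14.2 in CPC-EV (SD, n = 3), so that miR-93-3p had more counts than miR-93-5p in all 3 CPC-EV libraries. miR-25-5p and miR-93-3p had log2 fold changes of 1.34 ± 0.86 (FDR = 0.314) and 0.33 ± 0.36 (FDR = 0.578) at this step, and the difference between arms was not tested. In CMi-EV and CMm-EV the part of miR-25-3p was 94.3% ± 3.02 and 92.3% ± 2.28 (SD, n = 3), and miR-25-5p was called lower in CMi-EV versus CPC-EV (-2.75 ± 0.55, FDR = 0.0113). The part of miR-106b-3p there was 87.8% ± 10.7 and 85.3% ± 22.1 (SD, n = 3). That of miR-93-5p was 46.1% ± 11.2 in CMi-EV (SD, n = 3). In CMm-EV it was 20.9% and 46.2% in replicates 2 and 3, replicate 1 having no count of either arm.

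Fragments of the host transcript were too few to follow miR-106b-25. MCM7 fragments had counts of 0, 25 and 33 in hiPSC-EV, 24, 26 and 0 in CPC-EV, 0 in each CMi-EV library, and 0, 28 and 0 in CMm-EV. Of MCM2 to MCM7, which form the helicase together, MCM4 and MCM6 passed the filter in CMm-EV versus hiPSC-EV and 1 was called. MCM4, with 40, 77 and 33 counts in hiPSC-EV and none in CMm-EV, was at least 5.66-fold lower (FDR = 0.00899). It passed the filter through hiPSC-EV alone, and without a filter no MCM transcript was called, and with filterByExpr none was tested. MCM6 was at 0.58 ± 1.48 (FDR = 0.789). The same rule called 52.0% of 1911 transcripts in either direction. Counts of MCM7 did not separate the groups.

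By the likeness of log2(CPM + 1) over the 12 libraries, which share the 4 stages, the 2 miRNA outside the members most like miR-363-3p were miR-1323 (Pearson r = 0.986, n = 12) and miR-335-3p (r = 0.982). For miR-25-3p they were miR-151a-3p (r = 0.973) and miR-204-5p (r = 0.968), for miR-106a-5p miR-302c-3p (r = 0.963) and miR-183-5p (r = 0.923), and for miR-20b-5p miR-1298-5p (r = 0.962) and miR-335-3p (r = 0.952). miR-93-5p was most like miR-221-3p (r = 0.970) and miR-204-5p (r = 0.949), and miR-106b-3p most like miR-302c-3p (r = 0.952) and miR-20a-5p (r = 0.932). For miR-106b-5p they were miR-92a-1-5p (r = 0.939) and miR-17-3p (r = 0.899), and for miR-18b-5p miR-512-3p (r = 0.972) and the joint row of miR-517a-3p and miR-517b-3p (r = 0.899). Over the 16 pairs of members from different clusters r lay between 0.515 (miR-106a-5p and miR-106b-5p) and 0.959 (miR-363-3p and miR-25-3p), with miR-106a-5p and miR-106b-3p at 0.956 (n = 12).

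Marker lists show what else moved with stage. The 8 pluripotency miRNA (of the miR-302 and miR-371 clusters) summed to 186835 ± 20632 CPM in hiPSC-EV, and to 66044 ± 15628, 5400.1 ± 1379 and 182 ± 105 CPM in the later stages (SD, n = 3). All 6 tested were called lower in CMm-EV versus hiPSC-EV (37.5% of all miRNA), 5 of them having passed the filter through hiPSC-EV alone. miR-302b-3p was the most abundant in every group, with means of 178903 CPM in hiPSC-EV and 62511 CPM in CPC-EV, and so set the sum. In CPC-EV versus hiPSC-EV 2 of the 7 tested were called lower (16.0% of all miRNA) and none higher. Their median log2 fold change was -0.32, against -0.27 over all miRNA. miR-371a-3p, miR-372-3p and miR-373-3p averaged 6.32, 177 and 23.2 CPM in hiPSC-EV and 12.5, 258 and 39.1 CPM in CPC-EV. These miRNA and miR-367-3p had no count in CMm-EV. The 6 cardiomyocyte miRNA, mostly miR-1-3p, summed to 60.3 ± 12.1, 1045 ± 414, 49676 ± 27523 and 99210.2 ± 94784 CPM (SD, n = 3), and all 6 were called higher in CMm-EV versus hiPSC-EV (16.1% of all miRNA), 5 of them having passed the filter through CMm-EV alone. Their sum was 52631, 75603 and 20795 CPM in the CMi-EV libraries and 37820, 51436 and 208375 CPM in the CMm-EV libraries, so the groups overlapped and the CMm-EV mean was raised by replicate 3; none was called in CMm-EV versus CMi-EV. GATA4 fragments had no count in hiPSC-EV, 47, 83 and 25 counts in CPC-EV, 15, 59 and 43 in CMi-EV, and 0, 7 and 9 in CMm-EV. As CPM of all transcript fragments they were at 58.6, 63.2 and 34.1 in CPC-EV and 33.7, 118 and 196 in CMi-EV. In CMm-EV they were at 0, 21.7 and 30.6 CPM. The 5 endoderm and liver miRNA summed to 1793 ± 478, 7614 ± 1251, 6000.4 ± 3775 and 3221 ± 1134 CPM in the order of stages (SD, n = 3). Of the 5 tested in CPC-EV versus hiPSC-EV, 4 were called higher (11.5% of all miRNA), and 2 of the 5 had passed the filter through CPC-EV alone. The CMi-EV mean was raised by replicate 3, at 10352 CPM against 4036 and 3613 CPM. The most abundant was miR-375-3p in CPC-EV replicates 1 and 2 and miR-192-5p in the other 10 libraries. miR-375-3p averaged 67.4 ± 38.6, 4032 ± 1058, 471 ± 206 and 12.4 ± 14.6 CPM (SD, n = 3), called higher in CPC-EV versus hiPSC-EV (6.32 ± 0.40, FDR = 0.000482) and lower in CMi-EV versus CPC-EV (-3.09 ± 0.41, FDR = 0.00235) and in CMm-EV versus CMi-EV (-5.34 ± 0.88, FDR = 0.0158). Its CMm-EV mean was raised by 1 library, the lowest being at 3.18 and the highest at 29.2 CPM. The rest of the list did not fall with it in CMi-EV versus CPC-EV. There miR-122-5p, miR-192-5p, miR-194-5p and miR-483-5p had log2 fold changes of 0.22, 0.38, 0.75 and 2.21, none called. miR-122-5p averaged 0.426 ± 0.738, 725 ± 435, 862 ± 996 and 732 ± 525 CPM in the order of stages (SD, n = 3). It was called higher in CMm-EV versus hiPSC-EV (9.71 ± 1.12, FDR = 0.000869), having passed the filter through CMm-EV alone.

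Blood cells contain much miR-25-3p and miR-93-5p, so a blood list is given beside them. Of its 6 miRNA, 4 were analysed here. They summed to 5307, 7147 and 8684 CPM in hiPSC-EV, 940.4, 857 and 1152 CPM in CPC-EV, 2052, 2082 and 728 CPM in CMi-EV, and 831, 771 and 875 CPM in CMm-EV. Nearly all of it was miR-486-5p, which was called lower in CPC-EV (-2.43 ± 0.24, FDR = 0.000664) and in CMm-EV versus hiPSC-EV (-3.40 ± 0.31, FDR = 0.000283). The authors also name miR-486 among miRNA found only or mainly in striated muscle. The red cell marker miR-451a was highest in CPC-EV, with means of 3.16 ± 2.76, 23.8 ± 21.3, 0 and 1.16 ± 1.22 CPM in the order of stages (SD, n = 3). miR-144-3p had counts only in 1 CPC-EV library (mean 3.47 ± 6.01 CPM, SD, n = 3). miR-150-5p had counts only in hiPSC-EV (mean 27.1 ± 23.6 CPM, SD, n = 3), where 1 library had none. None of miR-451a, miR-144-3p and miR-150-5p passed the filter. The part of these cell types in the members' levels was not tested.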

How the data were processed

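The authors processed small RNA reads with the exceRpt pipeline against hg38 and miRBase, and their notes name edgeR 3.24.0. The deposited tables held expected counts of reads per miRNA and per transcript, in which reads fitting several entries are divided, and RPM as scaled by the authors, used only to recover library totals. Expected counts were rounded to whole numbers. Each fit kept rows with at least 5 CPM in every library of a compared group. Differences were tested with edgeR 4.0.16 (TMM, estimateDisp, glmQLFit, glmQLFTest; 2-sided; Benjamini-Hochberg over all tested miRNA) in R 4.3.3; DESeq2 1.42.0 was an alternative. The SE came from the fit's weighted information and posterior dispersion. Ratios were tested with Python 3.11.15 by exact permutation. The edgeR fits were tested on simulated counts with known changes. Alternatives in scaling, filter, test, dispersions, block, rounding, shared reads and left-out libraries are in the sensitivity section. Transcript fragments of a symbol were summed over biotypes; their CPM filter used the table's totals. Members and lists were chosen with earlier results of these data known: the miR-17-92 list, other arms, same-seed miRNA, MCM2 to MCM7, pluripotent, cardiomyocyte, blood and endoderm markers, and for each member the 2 most alike miRNA. The listed miR-375 is miR-375-3p in the table. ISL1, miR-223-3p and miR-144-5p were not analysed here.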

Additional observations from a re-analysis of the deposited data

How the results depend on the processing

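Of 504 alternative values of the members' log2 fold changes, 458 kept direction and side of the threshold, 23 lost the call, 21 gained it (2 of these are sums of miR-20b-5p with the more abundant miR-20a-5p) and 2 changed sign, both for miR-106b-5p in CPC-EV versus hiPSC-EV (-0.0034 with the RPM library totals, -0.0556 with scaling and dispersions from all 12 libraries). Members called in CPC-EV versus hiPSC-EV went from 3 to 1 with the replicate block. In CMm-EV versus hiPSC-EV the block took members called from 8 to 7, with the loss of miR-106b-5p. Those in CMi-EV versus CPC-EV went from 2 to 4 with library size only or without a filter, and to 1 with scaling and dispersions from all 12 libraries. With reads of near-identical miRNA summed the count was 4, but the added rows are sums with miR-20a-5p and miR-18a-5p of miR-17-92, both called alone, and are not calls of the members. Those in CMm-EV versus CMi-EV went from 1 to 2 with library size only or with RPM library totals, and the 2 with summed reads includes the sum of miR-20b-5p with miR-20a-5p. Called MCM transcripts went from 1 to 0 without a filter, where 18071 transcripts were tested, and with filterByExpr, where no MCM transcript was. Without a filter, 2 MCM transcripts had p below 0.05. Leaving out each library gave 2 to 4 members called in CPC-EV versus hiPSC-EV and in CMi-EV versus CPC-EV, 1 in CMm-EV versus CMi-EV, 6 to 8 in CMm-EV versus hiPSC-EV, 5 to 7 across the 4 groups and 1 to 2 MCM transcripts. It gave differences of 2.04 to 2.66 for miR-363-3p to miR-25-3p (highest adjusted exact p = 0.00935), 1.97 to 7.43 for miR-20b-5p to miR-93-5p and -0.26 to 6.55 for miR-106a-5p to miR-106b-5p. Without the first position of each cluster the share of miR-106a-363 was 88.8% in CPC-EV and 86.4% in CMi-EV, against 86.8% and 84.1%. The scalings, the fit over all 12 libraries included, moved the median log2 fold change of all miRNA in CMm-EV versus hiPSC-EV between -1.97 and -1.01, and all 8 members stayed negative. Same-numbered libraries did not deviate together (r from -0.12 to 0.10 in 18 pairs), so the numbers do not pair the samples. The block changed no call of a ratio.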
